A study of Homo sapiens with 6 samples.

Results

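SRC-family kinases are cytoplasmic, membrane-associated tyrosine kinases that relay signals from integrins and growth factor receptors to adhesion sites, the cytoskeleton and gene expression. Their activity is restrained by CSK, which phosphorylates a tyrosine in the C-terminal tail, so that the tail folds back on the SH2 domain, and it is released by phosphatases that remove that phosphate. FRK and PTK6 form a related branch that is best known from epithelial cells.

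The 7 genes described here are FRK, SRC, YES1, FYN, LYN, PTK6 and CSK, and they were found by symbol in the deposited count table, where each symbol matched 1 of 39323 genes. All 7 passed the filter on low counts, among 16869 genes tested. The group was selected on the measured difference between the conditions, since FRK was already known to be among the most raised genes of these libraries. Values of the 7 genes in that contrast are therefore given as a description. The libraries are polyadenylated RNA from MDA-MB-231, an established human breast cancer line without hormone receptors and with mesenchymal traits. The sample titles all name this line, while the number in the separate cell line field goes up by 1 from sample to sample, and the titles were followed. In the siSF3B6 group (3 libraries) the cells received a small interfering RNA against SF3B6, a subunit of the SF3b complex that binds the branch point of introns. In the siNC group (3 libraries) they received a non-targeting duplex with the same lipid reagent. Only 1 duplex against SF3B6 was used, so loss of SF3B6 and other effects of that duplex cannot be told apart, and the labels give no time after transfection. Kinase protein and activity were not measured.

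The libraries held 28504091 to 38546037 reads in genes. SF3B6 itself was at 86.4, 80.55 and 102 CPM with siNC and at 22.5, 25.02 and 21.3 CPM with siSF3B6, or 25.6% of its siNC level. Reads in mitochondrial genes made up 3.38% and 3.93% in replicates 1 and 2 of siNC, 9.07% in siNC replicate 3 and 10.6% to 11.8% in siSF3B6. Genes with 1 to 9 reads numbered 13952 and 14956 in that pair of libraries and 7731 to 8325 in the other 4, so siNC replicate 3 stood nearer to siSF3B6 on both measures. No label says whether replicates were separate cultures, so a p-value here covers only the variation among these 6 libraries. Among line markers, VIM had a mean of 3021 CPM in siNC and CD44 had 531 CPM (reads scaled to library size with TMM factors), while the hormone receptor genes ESR1 and PGR had at most 11 reads in any library. Of the 10 blood cell markers, which matter here because several SRC-family kinases are typical of blood cells, MS4A1 had at most 2 reads in any library. The summed level of that list was 17.4 to 22.0 CPM in siNC and 18.2 to 26.4 CPM in siSF3B6, most of it from CD14 and CSF1R, and 3 of its 5 tested genes rose, against 20.8% of all genes: PTPRC (15 to 51 reads per library), CD3D (4 to 21) and HBB, which had 241 reads in siSF3B6 replicate 2 and 1 to 15 elsewhere. These were named after their values were seen, and their part in the results was not tested. FRK in siSF3B6 replicate 2 lay between the other 2 siSF3B6 libraries, and its change without that library was 1.82 on the log2 scale. The libraries then kept include siSF3B6 replicate 3, with 45 PTPRC reads, and siSF3B6 replicate 1, with 21 CD3D reads.

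FRK was covered by 93, 69 and 81 reads with siNC (replicates 1, 2, 3) and by 230, 325 and 311 reads with siSF3B6. Scaled for depth, these were 2.98, 2.29 and 2.41 CPM with siNC and 7.83, 8.80 and 10.2 CPM with siSF3B6. The lowest siSF3B6 library lay far above the highest siNC library. The exact 95% Poisson intervals, which cover counting error only, reached up to 3.65 CPM in siNC and down to 6.84 CPM in siSF3B6. FRK was chosen with this contrast known, so the gap between the groups is a description. The mean went from 2.56 ± 0.370 to 8.93 ± 1.18 CPM (SD, n = 3), which is 3.49-fold and 1.80 on the log2 scale (SE 0.152). It ranked 45th of 16869 genes by upward log2 fold change, so that 0.267% of genes rose as much or more. In siNC replicate 3, the control library nearest to siSF3B6 in its mitochondrial share, FRK was at 2.41 CPM and thus between the other siNC libraries. With that library as the lone control the log2 fold change was 1.88.

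FRK (ENSG00000111816.8 in the count table, ENSG00000111816.7 in GENCODE 29) maps to chromosome 6 (115931149 to 116060758, minus strand), in GRCh38 with GENCODE 29. No other annotated gene shares its exons. Its longest transcript has 13230 bases, of which 11265 are 3' UTR, against a median 3' UTR of 1599 bases over 13403 tested genes with one, and 0.731% of those genes have one at least as long. The duplex used against SF3B6 can bind other messages through the seed of its antisense strand, so the seed matches of the members were read from GENCODE 29. Capitals mark bases 2 to 8 of the strand that is complementary to the sense sequence given in the labels, and, in the 3' UTRs, the bases that pair with them.
siSF3B6 antisense strand: aAGCUUCAacuguuccucc
FRK, 6496 bases into the 3' UTR: agtctgcTGAAGCTgctccca
FRK, 8480 bases into the 3' UTR: ggtcatgTGAAGCTaaagatt
FYN, 125 bases into the 3' UTR: gtgactcTGAAGCTgacgaac

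These sites lie on the minus strand of chromosome 6 in GRCh38, at 115935905 to 115935925 and 115933921 to 115933941 for FRK and at 111661601 to 111661621 for FYN. A match to this seed was present in 18.1% of all tested genes with a 3' UTR, and in 68.0% of the 150 genes whose 3' UTR has at least 10000 bases. FRK, which was higher in siSF3B6, thus carries 2 matches, and FYN, which was lower, carries 1. YES1, SRC, PTK6 and CSK carry 0. LYN carries 1 match and was higher. For the seed of the control duplex, FRK and LYN carry 1 match each and the other 5 members 0, against 3.55% of all tested genes with a 3' UTR and 18.7% of those with at least 10000 bases. The 2 members that were higher are thus the 2 with a match to the control seed. They are also the 2 with the longest 3' UTRs, 11265 bases in FRK and 4058 in LYN, against 685 to 2836 in the other 5. Whether either duplex acts on any of these sites was not tested.

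The RefSeq promoter table (GRCh38.p14) had windows for FRK, YES1, FYN and CSK. The 250 bases before the RefSeq start site of FRK, the gene with the largest rise, and of YES1, one of the pair that were lower, differ in base composition. They are shown with each CG in capitals.
FRK: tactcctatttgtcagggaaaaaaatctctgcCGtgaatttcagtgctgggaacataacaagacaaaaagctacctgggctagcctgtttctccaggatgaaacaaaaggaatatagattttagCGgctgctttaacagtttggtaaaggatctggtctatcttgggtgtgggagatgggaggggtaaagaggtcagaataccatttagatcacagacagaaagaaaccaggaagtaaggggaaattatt
YES1: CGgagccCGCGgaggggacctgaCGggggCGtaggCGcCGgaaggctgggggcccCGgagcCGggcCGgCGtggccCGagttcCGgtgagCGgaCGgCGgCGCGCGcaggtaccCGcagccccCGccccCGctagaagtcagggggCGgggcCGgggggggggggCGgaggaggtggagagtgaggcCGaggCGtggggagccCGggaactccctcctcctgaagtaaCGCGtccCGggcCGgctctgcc

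These stretches lie at chr6:116060892-116061141 and chr18:812243-812492, both on the minus strand. The FRK stretch lies before the start of the gene in GENCODE 29 (116060758). The YES1 stretch lies inside the gene of GENCODE 29, which starts at 812546, so the start sites of the 2 sources differ. The FRK stretch holds 2 CG pairs, and 22.9% of the 35116 promoter windows in the table hold as few over the same 250 bases, where the median is 11. The YES1 stretch holds 32, which 9.52% of windows reach. Over the same 250 bases the 4 FYN windows hold 20, 45, 6 and 0 CG pairs, and the CSK window holds 4. The FYN windows with 6 and 0 have start sites at 111759917 and 111759081, inside the gene, which starts at 111873452 in GENCODE 29. The window at that gene start holds 20. The CSK start site, at 74788544, is also inside its gene, which starts at 74782057. Few CG pairs thus also occur before internal start sites of FYN, which was lower, and of CSK, which was not called. In the full windows of 300 bases, both strands were searched for TGANTCA (AP-1, in 7.71% of all windows), GGGCGG (GC box, 45.0%), TATAAA (the start-site element of that name, 11.5%), AAANNGAAA (core of the interferon response element, 10.5%) and GGGANTTCC (NF-kB, 1.85%). None of these 5 letter patterns was found in the FRK window. The YES1 window held 3 GC boxes and 1 match to the NF-kB pattern, the 4 FYN windows held 10 GC boxes between them, and the CSK window held 0 of the 5. The YES1 matches start 128, 107 and 88 bases (GC box) and 45 bases (NF-kB) before the start site and share no bases. A match or its absence in these windows was not tested for any role.

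LYN, which acts downstream of immune and growth factor receptors and is also expressed in basal-like breast cancer lines, was the other member that was higher. It had 29.6, 29.5 and 32.2 CPM with siNC and 36.7, 37.7 and 42.2 CPM with siSF3B6. The groups did not overlap, and in both of them replicate 3 was the highest. The mean went from 30.4 ± 1.54 to 38.9 ± 2.93 CPM (SD, n = 3), which is 1.28-fold and 0.35 on the log2 scale (SE 0.0882). LYN (ENSG00000254087.8) maps to chromosome 8 (55879813 to 56014168, plus strand), of GRCh38. When siNC replicate 3 was the lone control its change was 0.26 on the log2 scale and was no longer called.

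YES1 and FYN, broadly expressed members that sit with SRC at integrin adhesions, were both lower. YES1 had 62.9, 56.4 and 61.5 CPM with siNC and 46.2, 46.1 and 50.2 CPM with siSF3B6. Its mean went from 60.3 ± 3.43 to 47.5 ± 2.34 CPM (SD, n = 3), which is 78.7% of the siNC level (log2 fold change -0.35, SE 0.0823). FYN had 40.5, 39.9 and 41.5 CPM with siNC and 31.8, 32.6 and 31.7 CPM with siSF3B6. In both genes every siSF3B6 library lay below every siNC library, and in FYN each group spanned less than 2 CPM. The FYN mean went from 40.6 ± 0.810 to 32.03 ± 0.511 CPM, which is 78.8% of the siNC level (log2 fold change -0.34, SE 0.0788). With siNC replicate 3 as the lone control both changes were -0.39 and neither was called. YES1 (ENSG00000176105.14) maps to chromosome 18 (721588 to 812546, minus strand), and 3.0% of its exonic bases are shared with an antisense gene. FYN (ENSG00000010810.17) maps to chromosome 6 (111660332 to 111873452, minus strand), 4.06 megabases from FRK, and thus the member that was lower with the least spread and the member that rose most share a chromosome.

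SRC, the founding member, had 35.3, 34.4 and 30.9 CPM with siNC and 33.0, 32.5 and 31.6 CPM with siSF3B6, and the groups overlapped. Its log2 fold change was -0.05 (SE 0.0854). PTK6, the breast tumour kinase first isolated from breast cancer, had 20.6, 20.5 and 17.1 CPM with siNC and 21.0, 18.6 and 16.1 CPM with siSF3B6, a difference of -0.07 on the log2 scale (SE 0.114). CSK, the kinase that inactivates the family, had 66.4, 70.6 and 60.9 CPM with siNC and 66.2, 63.2 and 53.3 CPM with siSF3B6, a difference of -0.12 on the log2 scale (SE 0.0956). In all 3 genes the ranges of the groups overlapped, the difference of means was smaller than the larger SD of the groups, and the third replicate was the lowest of its group. SRC (ENSG00000197122.12) and PTK6 (ENSG00000101213.7) lie on chromosome 20, at 37344685 to 37406050 on the plus strand and at 63528001 to 63537370 on the minus strand. CSK (ENSG00000103653.17) maps to chromosome 15 (74782057 to 74803198, plus strand). With an offset for GC content and transcript length the 3 values turned positive (SRC 0.11, PTK6 0.09, CSK 0.16), and CSK was then called, so no direction is given for them.

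**Figure D1:**
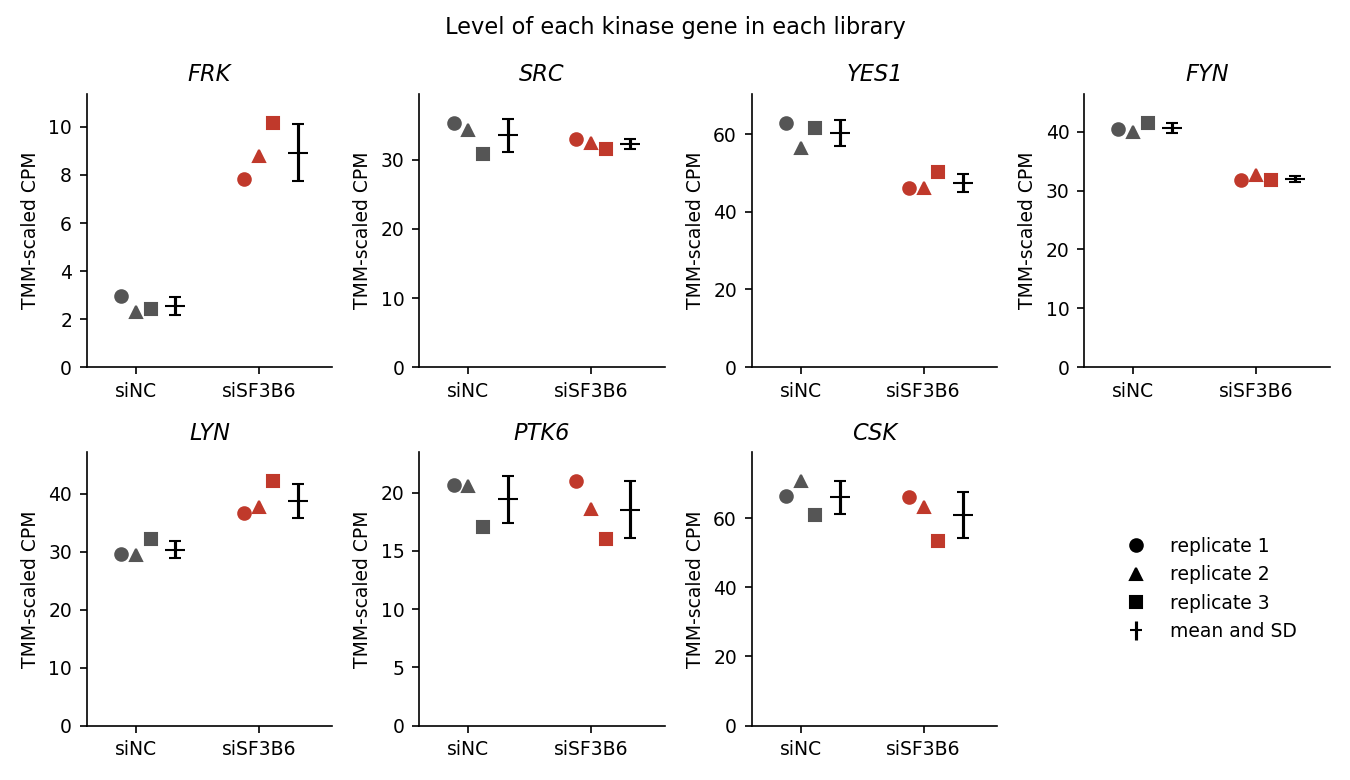
Level of each kinase gene in each library, in TMM-scaled CPM on a linear axis from 0, with siNC in grey and siSF3B6 in red, a symbol for each replicate number, and the mean with its SD beside the points. FRK, LYN, YES1 and FYN have groups that do not overlap, and SRC, PTK6 and CSK have groups that do.

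Counted over the members, edgeR's quasi-likelihood test with Benjamini-Hochberg adjustment over all genes called 4 of the 7 at a threshold of 0.05, among 40.8% of all 16869 genes. FRK and LYN were the 2 called higher, as were 20.8% of all genes, and YES1 and FYN the 2 called lower, as were 20.0%. The groups did not overlap for the same 4 members, and for 52.1% of all genes. Because the contrast helped to choose the members, nothing is read from these counts. The median log2 fold change of the 7 was -0.07, beside 0.0009 over all genes. The sizes differed more than the counts: YES1, FYN and LYN changed by sizes near the median of 0.29 over all genes, SRC, PTK6 and CSK differed by less than that, and FRK by more.

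**Figure D2:**
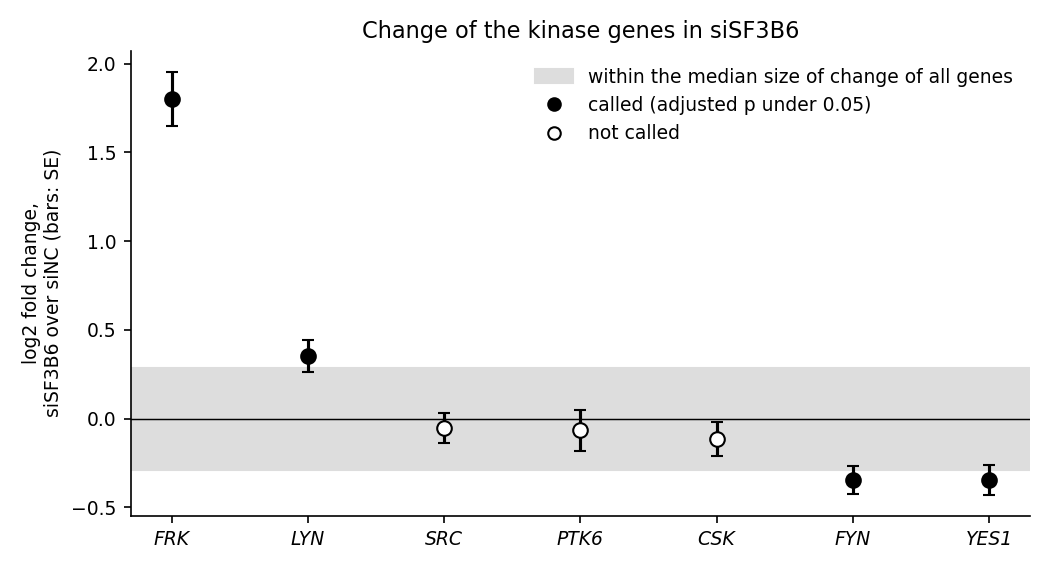
Log2 fold change of each member in siSF3B6 over siNC, with bars for the standard error, filled points for called genes and open points for those not called. The grey band reaches from -0.29 to 0.29, the median size of change over all tested genes, and FRK at 1.80 is the member far outside it.

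Levels were compared between genes in FPKM, fragments scaled to gene length and library size, as deposited, since longer genes collect more reads. In siNC, CSK was highest with 12.4 ± 0.783 FPKM (SD, n = 3), followed by YES1 with 10.1 ± 0.649 and PTK6 with 5.62 ± 0.542 FPKM. FYN (4.69 ± 0.146 FPKM), SRC (4.42 ± 0.276) and LYN (4.22 ± 0.258) followed close together, and the ranges of neighbours in that trio overlapped. FRK was last with 0.163 ± 0.0252 FPKM. In siSF3B6 the order was CSK (11.1 ± 1.24 FPKM), YES1 (7.68 ± 0.364), LYN (5.21 ± 0.384), PTK6 (5.18 ± 0.690), SRC (4.11 ± 0.0929), FYN (3.57 ± 0.0635) and FRK (0.55 ± 0.0755), and only the ranges of LYN and PTK6 overlapped. LYN thus went from below FYN and SRC in mean level to above both. FRK remained the lowest member in both groups despite its rise.

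The FRK value per length rests on a long gene model. Reads, FPKM and library totals together imply a length of about 15970 bases for FRK in the authors' FPKM, with a range of 15000 to 17290 over libraries, and its FPKM values have only 2 decimals. For the other members the implied mean lengths ran from 3510 bases for PTK6 to 8810 bases for FYN. These lengths are scaled to the gene totals of the count table and exceed the exonic lengths in GENCODE 29 for every member, so they serve to compare members only. Where FRK messages end in these cells was not tested, and the same length divides both groups.

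As a share of the summed FPKM of the 7 genes, FRK took 0.446%, 0.336% and 0.393% in siNC and 1.25%, 1.44% and 1.75% in siSF3B6. LYN took 10.1% ± 0.835 in siNC and 14% ± 1.50 in siSF3B6 (SD, n = 3), and YES1 went from 24.3% ± 1.62 to 20.6% ± 1.64. FYN went from 11.3% ± 0.562 to 9.55% ± 0.329. SRC (10.6% and 11.0%), PTK6 (13.5% and 13.8%) and CSK (29.8% and 29.6%) held nearly the same mean share in both groups. Without CSK, the 6 kinases it can restrain or that resemble them summed to 30.15, 28.5 and 29.1 FPKM in siNC and 26.4, 26.1 and 26.4 FPKM in siSF3B6. CSK relative to that sum was 0.425 ± 0.033 in siNC and 0.421 ± 0.048 in siSF3B6, a difference smaller than the spread between libraries. The summed FPKM without CSK was thus lower in each siSF3B6 library while FRK and LYN were higher. FPKM lack the TMM factors, and with filtered log2(FPKM + 1) the changes of all genes shifted by a median of -0.0488. In TMM-scaled CPM, which are not scaled to length, the 7 genes with CSK summed to 246 to 258 in siNC and 235 to 242 in siSF3B6.

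**Figure D3:**
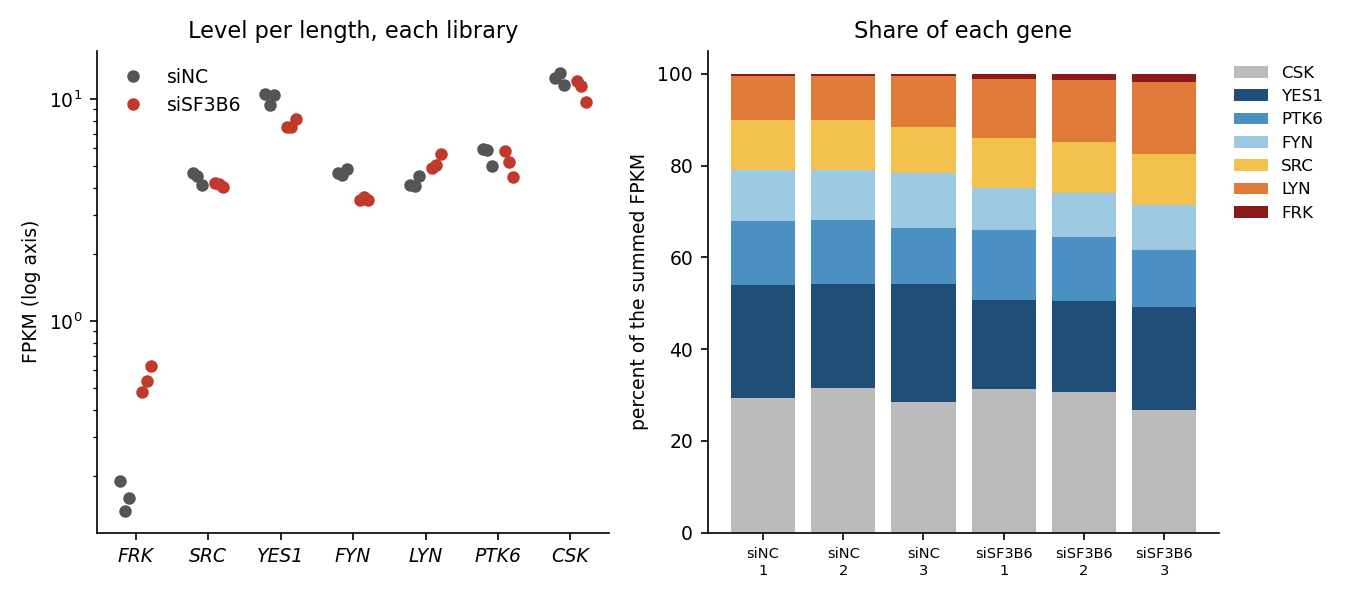
Left, FPKM of each member in each library on a log axis, with siNC in grey and siSF3B6 in red; right, the percent of the summed FPKM of the 7 genes that each gene took in each library. FRK is the lowest in all libraries and its share goes from 0.336% to 0.446% in siNC to 1.25% to 1.75% in siSF3B6.

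The remaining relatives were barely detected. LCK, FGR and BLK, family members typical of blood cells, SRMS, the closest relative of PTK6, and MATK, the homologue of CSK, had 0 to 13 reads in any library. None of these 5 passed the filter on low counts, so they were not tested.

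Profiles most like those of the members were found among 11298 other genes of at least 5 CPM, by the root mean square difference of log2 CPM centred over the 6 libraries. Nearest to FRK were RGS4, an inhibitor of G protein signalling (difference 0.0989, Pearson r = 0.994), CTB-89H12.4 (0.113, r = 0.992) and EDN1, which encodes endothelin-1 (0.124, r = 0.994). Their log2 fold changes were 1.75, 1.76 and 1.65. Nearest to YES1 were EED (0.024), NDC1 (0.0306) and RAB11FIP2 (0.0331), nearest to FYN were HNRNPA1 (0.0138), NEIL2 (0.0203) and ACACA (0.0217), and nearest to LYN were CDR2 (0.017), ST13 (0.0178) and TWSG1 (0.0184). The gene nearest to PTK6 was PTK2B, the focal adhesion kinase relative PYK2 (0.00935). These likenesses span 6 libraries that share depth and group, and they are a description.

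Beside FRK on chromosome 6, the nearest tested gene is NT5DC1, which starts 40.1 kb beyond the FRK start and runs the other way. It had 23.0 ± 1.45 CPM with siNC and 24.6 ± 1.62 CPM with siSF3B6 (log2 fold change 0.09, SE 0.0912; edgeR adjusted p = 0.439). The next 2 genes on that side did rise. TSPYL4, 189 kb away, went from 7.82 ± 0.923 to 15.7 ± 1.36 CPM (SD, n = 3; log2 fold change 1.01, SE 0.115, edgeR adjusted p = 2.7e-05). DSE, an epimerase that makes dermatan sulfate, 193 kb away, went from 12.1 ± 0.375 to 19.3 ± 2.02 CPM (0.67, SE 0.101, edgeR adjusted p = 0.000198). On the other side the nearest tested genes lie over a megabase away: HDAC2-AS2 had a log2 fold change of 0.11, HS3ST5 of -0.27 and HDAC2 of 0.06, and none was called. With the GC content and length offset HDAC2 turned to -0.15 and was called (edgeR adjusted p = 0.0412). The nearest gene was thus not called, while 2 farther ones on the same side were, as were 40.8% of all genes. Nothing about the FRK locus is read from these calls.

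Genes of the lists around the kinases were called in both directions, as were genes at large (20.8% of all genes higher and 20.0% lower). Of 26 regulators of SRC-family kinases, 24 were tested, 7 rose and 5 fell (12 of 24 called, against 40.8% of all genes; median log2 fold change 0.08). CBLB, a ubiquitin ligase that targets active tyrosine kinases, had 20.4, 20.2 and 20.5 CPM with siNC and 34.6, 32.8 and 34.2 CPM with siSF3B6, a difference of 0.73 on the log2 scale (SE 0.0819, edgeR adjusted p = 2.32e-05). Its paralog CBL fell by 0.46 on the log2 scale (edgeR adjusted p = 0.000684), and is named here after its value was seen. PTPRJ, a receptor phosphatase reported to act on SRC-family kinases, went from 145 ± 4.09 to 236 ± 6.72 CPM (0.71). PTPN6, the phosphatase SHP-1, rose by 0.55, and STUB1, a ubiquitin ligase that works with chaperones, fell by 0.70 on the log2 scale. With siNC replicate 3 as the lone control STUB1 was not called (-0.39, edgeR adjusted p = 0.0757), and 5 genes of the list were called in place of 12. With library size in place of TMM factors 6 rose and 8 fell (median -0.03), and with the GC content and length offset 6 rose and 9 fell (median -0.05).

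Among 30 substrates and adaptors, 28 were tested, 8 rose and 3 fell (39.3% called, near the 40.8% of all genes; median 0.09). NEDD9, a scaffold of the p130Cas family that SRC-family kinases phosphorylate, had 16.4, 15.4 and 19.1 CPM with siNC and 40.0, 37.4 and 43.2 CPM with siSF3B6, a difference of 1.24 on the log2 scale (SE 0.101, edgeR adjusted p = 2.59e-06). Its relative BCAR1 (p130Cas itself, 0.12) and the focal adhesion kinase gene PTK2 (-0.07) were not called. RASA1, a RAS GTPase activator (0.60), the transcription factor STAT3 (0.48) and CDCP1, a membrane protein bound by SRC (0.45), rose. With library size only 5 rose and 5 fell (median -0.01), and with the offset 12 rose and 3 fell. Without siNC replicate 1 or without siNC replicate 2, 5 genes of this list were called, and without siSF3B6 replicate 1 or 2, 7. With siNC replicate 3 as the lone control 4 were called, and RASA1 was not (edgeR adjusted p = 0.0658).

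Of 6 substrates described for FRK or PTK6, 2 rose and 2 fell (4 of 6 called, against 40.8% of all genes; median 0.16). STAP2, an adaptor bound by PTK6, rose by 0.33, and ARAP1 (-0.43) and STAT5B (-0.26) fell. Calls among these 6 genes were 1 without siNC replicate 1 or with siNC replicate 3 as the lone control, and 2 without siNC replicate 2 or siSF3B6 replicate 1. The calls of STAP2, ARAP1 and STAT5B were among those lost. With library size only 1 rose and 2 fell, and with the offset 3 rose and 2 fell.

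Among 13 receptors that signal through these kinases, 4 rose and 2 fell (46.2% called, against 40.8% of all genes; median 0.14). ITGA5, the fibronectin receptor subunit (0.62), its partner ITGB1 (0.48) and IL6ST, the shared receptor subunit gp130 (0.44), rose. ITGA5 had 158, 157 and 153 CPM with siNC and 250, 247 and 224 CPM with siSF3B6, and its edgeR adjusted p was 4.56e-05. ITGB3 fell by 0.29 on the log2 scale, a call that was lost without siNC replicate 1, 2 or 3, without siSF3B6 replicate 1 or 2, with the GC content and length offset, without a filter and with DESeq2 (adjusted p = 0.0971). Without siNC replicate 1, 3 genes of this list were called, and, when siNC replicate 3 alone served as control, 2 were, without IL6ST. With library size only 3 rose and 2 fell, and with the offset 6 rose and 1 fell. Of 17 other non-receptor tyrosine kinases, 11 were tested, and 1 rose and 1 fell (18.2% called, against 40.8% of all genes), or 1 and 3 with library size only and 2 and 2 with the offset. These were ABL2 (0.50) and TNK2 (-0.55), and the latter was not called with siNC replicate 3 as the lone control (edgeR adjusted p = 0.167).

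**Figure D4:**
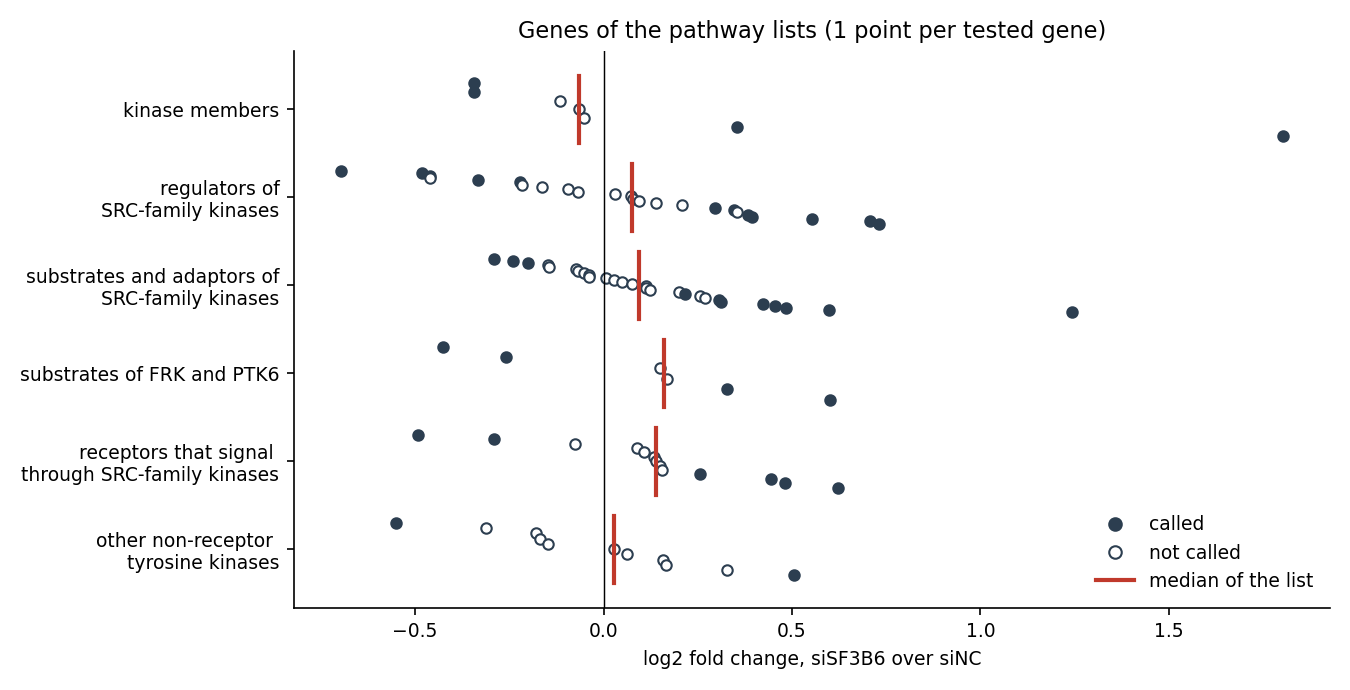
Log2 fold change of every tested gene of the members and 5 pathway lists in siSF3B6 over siNC, with filled points for called genes, open points for others and a red line at each list's median. Genes lie on both sides of 0 in each list, and FRK at 1.80 and NEDD9 at 1.24 are the points farthest to the right.

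Of 8 epithelial and hormone receptor markers, 5 were tested, and EPCAM, CDH1 and GATA3 rose while 0 fell (3 of 5 called higher, against 20.8% of all genes). ERBB2 (-0.08) and CLDN3 (-0.16) were not called, and are named here after their values were seen. EPCAM went from 10.7 ± 0.711 to 22.8 ± 1.09 CPM (SD, n = 3; log2 fold change 1.09), CDH1, which encodes E-cadherin, from 4.50 ± 0.650 to 6.63 ± 0.745 CPM (0.56), and GATA3 from 10.0 ± 1.10 to 14.2 ± 0.664 CPM (0.50). ESR1, PGR and FOXA1 had at most 11 reads in any library. GATA3 was not called with siNC replicate 3 as the lone control (0.34, edgeR adjusted p = 0.156). The summed level of the list was 76.1 to 92.2 CPM in siNC and 99.4 to 105 CPM in siSF3B6. Most of it came from ERBB2, with 49.3 to 65.0 CPM in siNC and 51.9 to 60.7 CPM in siSF3B6. Of 6 mesenchymal markers 3 rose and 0 fell, against 20.8% of all genes called higher: CAV1 (0.42), ZEB1 (0.30) and SPARC, which had 141 reads in siSF3B6 replicate 2 and 14 to 29 elsewhere, while VIM (0.08) was not called, and ZEB1 lost its call with library size only, with the offset, without siNC replicate 1, without siNC replicate 2 or without siSF3B6 replicate 3. The part of any change in cell state in the FRK value was not tested.

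Across 17 other settings that gave FRK a value it stayed called and higher, from 1.61 with the GC content and length offset to 1.92 without siNC replicate 1 on the log2 scale of counts. The exception in size was 0.41, obtained from log2(FPKM + 1), where the added 1 exceeds the FRK level itself. YES1 and FYN kept their direction and call in 18 of 19 settings and LYN in 17. The share of higher genes among all calls was 50.9%, 35.0% with library size in place of TMM factors and 41.6% with filtered log2(FPKM + 1). The median change of all genes shifted by -0.10 when library size alone set the scale, and FRK was then at 1.70, LYN at 0.25, YES1 at -0.45 and FYN at -0.45.

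**Figure D5:**
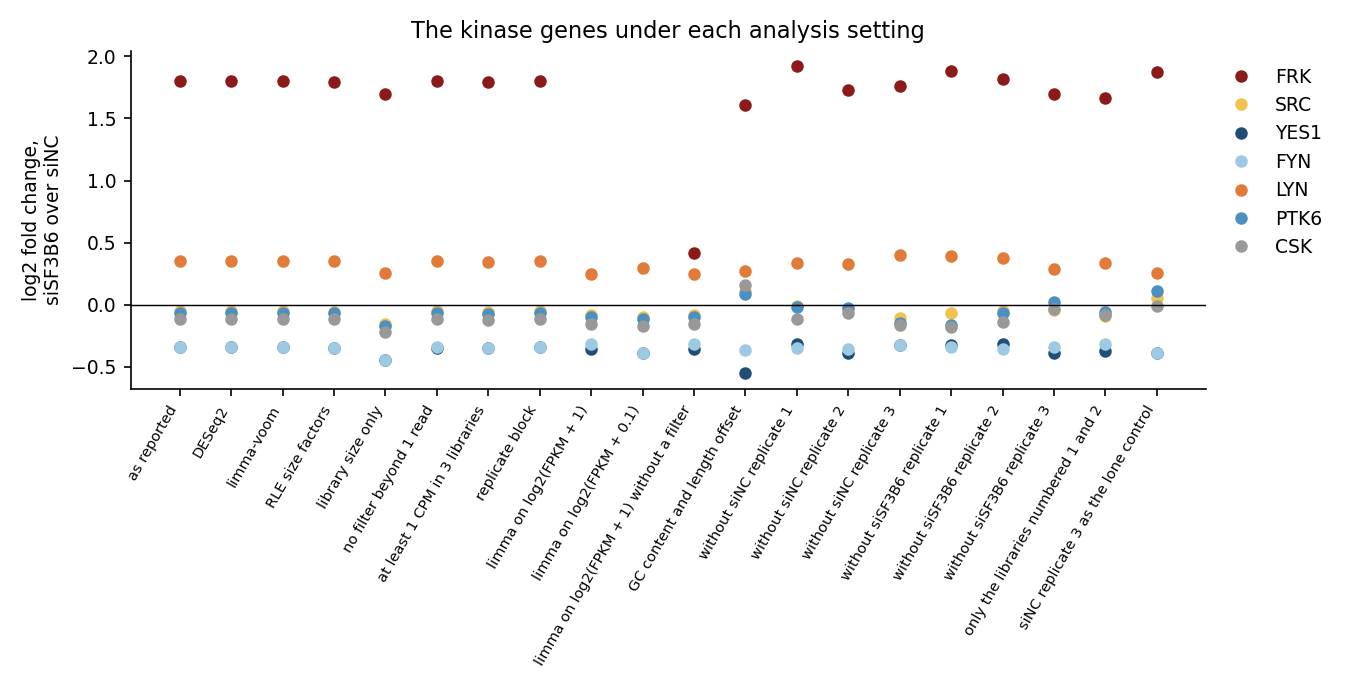
Log2 fold change of each member, siSF3B6 over siNC, as reported and under each other setting, with 1 colour per gene; 2 settings with a filter on FPKM give FRK no value. FRK is the highest member under every setting that gives it a value, YES1 and FYN stay below 0, and SRC, PTK6 and CSK lie around 0.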

How the data were processed

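The authors' table of raw gene counts holds whole numbers, and the deposited FPKM table holds values to 2 decimals. Per the submitters' processing notes, HISAT2, DESeq2 and the build hg38 were used. The libraries are strand-specific per the labels' protocols, and for counter, strand setting and annotation nothing is given in the sources used here. After filterByExpr, counts were normalized by TMM and analysed in edgeR 4.0.16 (quasi-likelihood, R 4.3.3, Benjamini-Hochberg over 16869 genes, threshold 0.05), without a replicate block. Standard errors are the log2 fold change over the square root of F. The script was tested on simulated data. Alternatives used DESeq2 1.42.0, limma 3.58.1 (voom, or log2(FPKM + 1) and log2(FPKM + 0.1) with mean FPKM of 0.5 or more), other scalings, filters and libraries, and a GC and length offset (lowess, span 0.3).

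The members and gene lists were chosen with earlier results of these data known. Named genes were the members, SF3B6, up to 4 called genes of at least 5 CPM with the largest change per list, the 3 nearest profiles and the 3 nearest tested genes on each side of FRK. Nearest profiles of SRC, PTK6 and CSK are not listed, except 1 for PTK6. Gene positions and 3' UTRs come from GENCODE 29, where every member except FYN has an earlier identifier version than in the count table. The gene models behind the counts can therefore differ from those described here. Protein sequences were not used here. Values of some genes on these lists are not reported here.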

Additional observations from a re-analysis of the deposited data

How the results depend on the processing

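With siNC replicate 3 as the lone control, assumed to vary like siSF3B6, 2471 genes were called in all, 1 member (FRK), 5 regulators, 4 substrates and adaptors, 2 receptors, 1 other kinase and 1 FRK or PTK6 substrate. Unfiltered log2(FPKM + 1) called 3817 genes, 7 substrates and adaptors, 2 receptors and 2 FRK or PTK6 substrates. The libraries numbered 1 and 2 alone called 17 substrates and adaptors and 7 other kinases. Library size only and the GC and length offset each called 4 other kinases. Leaving out single libraries gave 5 to 12 substrates and adaptors, 3 to 6 receptors and 1 to 4 FRK or PTK6 substrates. No label says that the replicate numbers pair the libraries. Correlations of deviations between siNC and siSF3B6 were 0.0397, 0.106 and 0.136 for libraries of the same number. For libraries of different numbers they were lower, from -0.12 to 0.0369. Whether libraries of the same number share a culture or day was not tested. With a replicate block 8052 genes and 7 other kinases were called, and the same number of members (4). Values not called in the report changed sign: SRC to 0.11 and PTK6 to 0.0866 with the offset, and SRC to 0.0533, PTK6 to 0.107, PTK2B to 0.0844 and NT5DC1 to -0.00756 with the lone control. The offset gave CSK 0.159, HDAC2 -0.150, NT5DC1 -0.129 and PTK2B 0.0308, of which CSK and HDAC2 were then called. Library size only gave HDAC2 -0.0416 and NT5DC1 -0.00787, and the libraries numbered 1 and 2 gave HDAC2 -0.0263. Leaving out single libraries gave PTK6 -0.164 to 0.0204, PTK2B -0.172 to 0.0129, HDAC2 -0.0376 to 0.119 and HDAC2-AS2 -0.102 to 0.360. The cause of these shifts was not tested. At 69 to 93 reads for FRK in siNC, depth limits its precision.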
